A study of Mus musculus with 2 samples.

Results

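Mesothelial cells, taken here as cell barcodes rich in UMIs (unique molecular identifiers, each standing for 1 captured RNA molecule) of the mesothelial genes Upk3b, Msln, Krt19, Nkain4 and Upk1b, made up 82 of the 14205 barcodes in the deposited tables. A barcode was a member if it held at least 500 genes, at most 20% mitochondrial UMIs, at least 4 UMIs of the 5 genes together and at least 0.15% of its UMIs in them. Barcodes with 0.5% or more of their UMIs in the macrophage genes C1qa, C1qb and C1qc were left out, as were those with more than 1 UMI of the endothelial genes Cdh5, Cldn5 and Egfl7. The rule read the same counts that are described here, so the levels of its genes are given as a description.

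Both libraries came from the stromal vascular fraction of epididymal white adipose tissue of male C57BL/6J wild type mice, 18 weeks old. One library was made from mice on normal chow diet (NCD) and the other from mice on high fat diet (HFD) for 12 weeks. The tissue was digested with type II collagenase, and 10x Genomics 3' version 3 chemistry gave 1 library per diet. How many mice entered each library is not given in the sources used here. With 1 library per diet, no difference between the diets has a replicate check, and the 95% intervals cover counting error only.

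Mesothelium is a single layer of flat cells that lines the body cavities and covers the organs and fat pads in them. It carries keratins and tight junctions like an epithelium, arises from mesoderm, and makes a lubricated surface of microvilli and glycocalyx that lets organs slide. In epididymal fat it is the outer surface of the pad.

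The 5 genes of the rule stand for several sides of that surface. Upk3b and Upk1b encode uroplakins, membrane proteins first known from bladder epithelium, of which Upk1b is a tetraspanin. Msln encodes mesothelin, a surface glycoprotein, Krt19 a type I keratin, and Nkain4 a membrane protein that interacts with the sodium and potassium pump. In GRCm38, Upk3b lies at chr5:136038496-136046487, Msln at chr17:25748613-25754378, Krt19 at chr11:100140810-100148665, Nkain4 at chr2:180934772-180954699 and Upk1b at chr16:38773184-38800328.

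Promoter windows of RefSeq on GRCm38.p6, running from 250 bases before to 50 bases after an annotated start, were at hand for 18 of 27 mesothelial genes looked up, and these had 23 windows. Those of Upk3b, of the secreted protease inhibitor Slpi and of the keratin genes Krt7, Krt8 and Krt18 are shown because Upk3b chose the members and the levels of the others in members and stromal barcodes are given below. Capitals mark matches on either strand to GCGTGGG, a letter string bound by WT1 and EGR factors, to GGAATG, bound by TEAD factors, and to TATAAA, the TATA box. Each is written 5′ to 3′ on the strand of the gene.
Upk3b, chr5:136038246-136038545, plus strand: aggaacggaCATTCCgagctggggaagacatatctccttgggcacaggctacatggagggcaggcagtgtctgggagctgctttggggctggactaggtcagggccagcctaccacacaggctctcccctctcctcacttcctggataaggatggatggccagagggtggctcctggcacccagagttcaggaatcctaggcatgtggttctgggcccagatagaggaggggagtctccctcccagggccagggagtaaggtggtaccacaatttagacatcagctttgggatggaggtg
Slpi, chr2:164356458-164356757, minus strand: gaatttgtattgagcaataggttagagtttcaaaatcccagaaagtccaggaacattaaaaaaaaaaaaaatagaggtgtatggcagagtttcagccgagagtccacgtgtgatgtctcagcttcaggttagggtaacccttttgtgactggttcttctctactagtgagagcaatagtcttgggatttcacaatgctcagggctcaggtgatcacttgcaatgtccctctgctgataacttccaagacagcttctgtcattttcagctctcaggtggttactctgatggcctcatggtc
Krt7, chr15:101412153-101412452, plus strand: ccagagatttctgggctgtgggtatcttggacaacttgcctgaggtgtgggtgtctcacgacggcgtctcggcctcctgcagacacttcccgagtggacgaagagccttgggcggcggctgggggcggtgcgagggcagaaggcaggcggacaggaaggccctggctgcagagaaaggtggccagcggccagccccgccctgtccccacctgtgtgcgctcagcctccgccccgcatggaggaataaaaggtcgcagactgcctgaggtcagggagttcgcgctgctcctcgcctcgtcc
Krt8, chr15:102004293-102004592, minus strand: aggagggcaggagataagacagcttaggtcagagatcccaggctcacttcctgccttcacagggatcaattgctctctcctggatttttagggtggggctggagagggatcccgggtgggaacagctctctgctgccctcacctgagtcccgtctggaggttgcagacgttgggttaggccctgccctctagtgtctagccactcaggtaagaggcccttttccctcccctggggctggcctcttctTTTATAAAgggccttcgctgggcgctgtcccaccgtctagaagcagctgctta
Krt18, chr15:102027966-102028265, plus strand: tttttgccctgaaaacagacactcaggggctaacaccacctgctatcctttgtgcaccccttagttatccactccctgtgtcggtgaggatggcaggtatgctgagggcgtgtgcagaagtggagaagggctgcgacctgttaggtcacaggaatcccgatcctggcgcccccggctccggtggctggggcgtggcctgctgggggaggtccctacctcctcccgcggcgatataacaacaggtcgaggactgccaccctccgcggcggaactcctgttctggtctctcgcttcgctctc

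Upk3b held 1 match to GGAATG, on the minus strand, and Krt8 held 2 overlapping matches to TATAAA, 1 on each strand. The windows of Slpi, Krt7 and Krt18 held none of these letter strings. Over the 23 windows, 2 held GCGTGGG, 4 held GGAATG and 3 held TATAAA. Of all 32851 windows in the table, 5.04%, 14.7% and 13.6% did. Krt8 and Krt18, which encode keratins that pair into 1 filament, lie on chromosome 15 with 23697 bases between them.

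The NCD library held 59 members of 7344 barcodes within the limits on genes and mitochondrial UMIs, or 0.803% (exact Clopper-Pearson 95% interval 0.612 to 1.04). The HFD library held 23 of 6786, or 0.339% (0.215 to 0.508). The HFD share was thus 2.37-fold lower (conditional binomial interval 1.44 to 4.02), a log2 ratio of -1.25 (-2.01 to -0.53). With a stricter rule of 0.3% and 8 UMIs the log2 ratio was -2.75 (-4.14 to -1.61), on 51 and 7 members. Among barcodes with at least 1000 genes it was -0.88 (-1.84 to -0.02), and for members with under 1.5% stromal genes -0.94 (-1.97 to 0.03). As a share of mesothelial and stromal barcodes together, members were 2.80% (2.14 to 3.60) in NCD and 0.873% (0.554 to 1.31) in HFD.

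Without any rule on barcodes, the 5 genes summed to 95.7 CPM over all barcodes of the NCD library and to 26.0 CPM in the HFD library, CPM being UMIs per 1000000 UMIs of the barcodes summed. Members held 76.1% of those UMIs in NCD and 48.8% in HFD. Upk3b, Msln, Krt19 and Upk1b UMIs of the NCD library lay almost all in members, from 94.0% for Msln to 97.4% for Upk1b. In HFD the same shares ran from 44.2% for Upk1b to 68.9% for Krt19. The Krt19 share and the 48.8% rest in part on 1 HFD barcode that carried none of the other rule genes. It held 64 of the 84 Krt19 UMIs, and of the 236 UMIs of all 5 genes, in HFD members. Nkain4 was less restricted, with 40.5% of its UMIs in members in NCD and 23.5% in HFD.

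The libraries differed in depth, which touches every count above. They held 33825653 UMIs in NCD and 18623508 in HFD, with 4230 and 2020 UMIs in the median barcode. Members had a median of 6259 UMIs in NCD (range 1563 to 22677) and 2156 in HFD (1500 to 14735), and medians of 2296 and 1057 genes. All members of a library together held 396811 UMIs in NCD and 69985 in HFD, so 1 UMI stood for 2.52 CPM and 14.3 CPM. The 2 libraries had 64 barcode sequences in common, 1 of which belonged to a member, and no sequence was a member in both.

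The 5 genes took a median of 0.580% of a member's UMIs in NCD and 0.291% in HFD, with highest values of 1.57% and 0.541%. Just inside the limit stood a NCD barcode at 0.152% (7 of 4608 UMIs) and a HFD barcode at 0.159% (4 of 2518). The nearest below it were at 0.131% in NCD (24 of 18306) and, in HFD, at 6 of 4001 UMIs, less than the limit of 0.15%. Of the 80 NCD barcodes with at least 4 such UMIs, 21 fell below the share, and of the 31 in HFD, 5 fell below it, 1 was barred by C1q genes and 2 by endothelial genes.

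Most members carried several of the 5 genes. All 5 were seen in 44 of 59 NCD members and in 5 of 23 HFD members, and 4 members carried a single one. Those were 3 NCD barcodes with only Nkain4 (5, 6 and 7 UMIs) and 1 HFD barcode with 64 Krt19 UMIs and none of the others. The 3 NCD barcodes had 2.43%, 1.72% and 3.52% of their UMIs in the stromal genes Dcn, Col3a1, Col1a2 and Lum. They held no UMI of Krt8, Krt18 or Slpi. That HFD barcode held 14735 UMIs, 21.1% of all UMIs of the HFD members, and only 0.0475% of its UMIs were stromal Dcn, Col3a1, Col1a2 and Lum. It carried 12 UMIs of Epcam and 8 of Cldn7, epithelial adhesion and junction genes that none of the NCD members showed, and 556 UMIs of the leukocyte and epididymal surface gene Cd52. Slpi, present in 15 of 23 HFD members, was at 0 in it. It stood apart from its label, so results are also given without these 4 barcodes, for the 56 NCD and 22 HFD members with UMIs of at least 2 of the 5 genes.

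The label was checked with 24 other mesothelial markers, from a list compiled with earlier results of these data known and not used by the rule. At least 3 of them were seen in 57 of 59 NCD members, or 96.6% (88.3 to 99.6), and in 21 of 23 HFD members, or 91.3% (72.0 to 98.9). The same held for 31.6% and 11.6% of stromal barcodes and for 2.71% and 2.32% of macrophage barcodes. Summed, the 24 genes stood at 15801 CPM in NCD members and 11317 CPM in HFD members, against 1010 and 800.2 CPM in stromal barcodes. Only Calb2, which encodes the calcium binding protein calretinin, was at 0 in both libraries, and Upk3bl and Tm4sf5 were at 0 in HFD. Median counts of markers seen were 14 in NCD and 6 in HFD, beside median depths of 6259 and 2156 UMIs. The fewest seen were 1 in NCD, in barcodes with only Nkain4, and 0 in HFD. That HFD barcode had 2.25% of its UMIs in the 4 stromal genes and stayed among those with at least 2 rule genes.

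**Figure D1:**
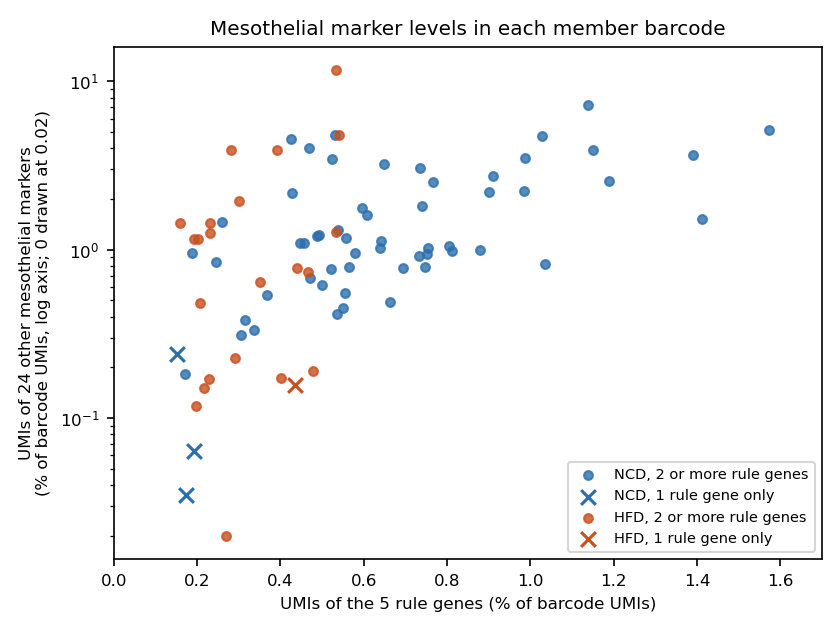
Share of each member barcode's UMIs in the 5 rule genes (x axis, %) and in the 24 other mesothelial markers (y axis, %, log scale), coloured by library; crosses are the 4 members with UMIs of only 1 rule gene. HFD members end at 0.541% on the x axis and NCD members reach 1.57%, while the other markers overlap between the libraries, with medians of 1.09% in NCD and 0.783% in HFD. Over all members of each library, Slpi alone makes up more of the other markers' UMIs than the rest together.

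Each rule gene stood lower in HFD members, with a spread between barcodes that overlapped. For Upk3b the NCD sum gave 1557 CPM (1437 to 1685) and the HFD sum 928.8 CPM (716.8 to 1184). Per barcode it ran from 0 over a median of 16.4 to 43.9 UMIs per 10000 in NCD, and from 0 over 11.9 to 25.1 in HFD. Msln was at 1031 and 471.5 CPM, Nkain4 at 1187 and 500.1 CPM and Upk1b at 753.5 and 271.5 CPM. Krt19 was at 1681 and 1200 CPM, but 64 of its 84 UMIs in HFD lay in the 1 barcode described above, and without it the HFD level was 362.0 CPM. The log2 ratios of HFD over NCD were -0.75, -1.13, -1.25, -1.47 and -0.49 for Upk3b, Msln, Nkain4, Upk1b and Krt19. In the barcodes with at least 2 rule genes they were -0.44, -0.83, -0.89, -1.17 and -2.25. The rule fixes these genes above a minimum in each member, so the ratios only describe the members.

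Because the depths differ, each barcode was also thinned to 1400 UMIs, which left no member out. A UMI of Upk3b was then seen in 81.4% (69.1 to 90.3) of NCD members and 78.3% (56.3 to 92.5) of HFD members, against 93.2% and 87.0% before thinning. Msln was seen in 64.4% and 43.5%, Krt19 in 76.3% and 47.8%, Nkain4 in 88.1% and 65.2% and Upk1b in 55.9% and 30.4%, and for each of them the intervals of the 2 libraries overlapped. Stromal and macrophage barcodes hold none of these genes by definition, so the background from free RNA was read from genes outside the rule. Slpi was seen in 64.4% of thinned NCD members and 65.2% of HFD members, against 0.873% and 3.74% of thinned macrophage barcodes, whose median depths before thinning were 3826 and 2085 UMIs. Krt7 was seen in 40.7% (28.1 to 54.3) of NCD members and in 3 of 23 HFD members (2.78% to 33.6%), against 0.0873% and 0.0473% in macrophage barcodes.

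**Figure D2:**
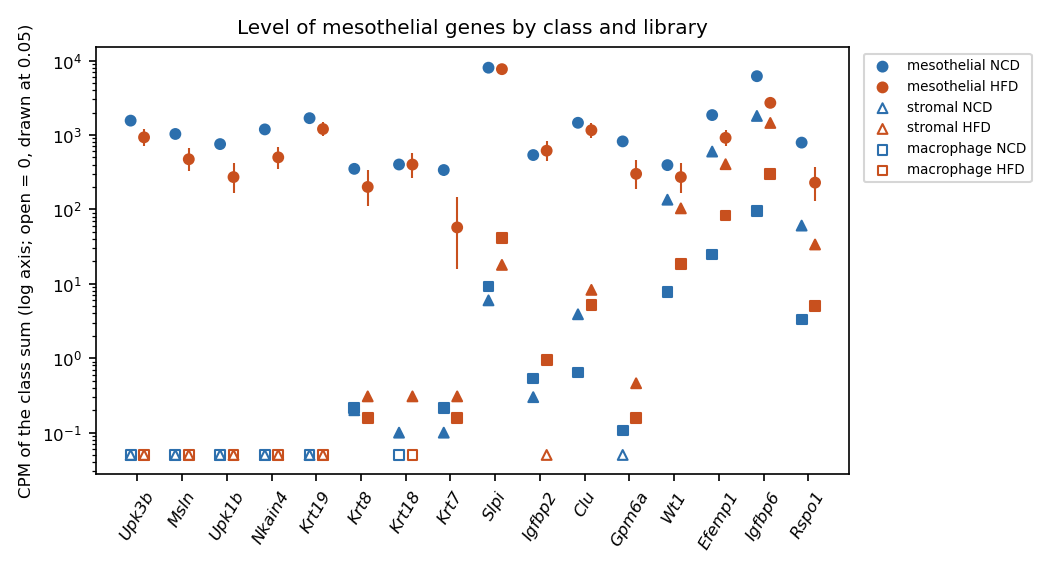
Level of 16 mesothelial genes (y axis, CPM of the class sum, log scale) in mesothelial, stromal and macrophage barcodes of the NCD and HFD libraries; vertical lines are 95% counting intervals of the mesothelial sums and open symbols are levels of 0, which the rule sets for its 5 genes in the other classes. Slpi stands at 8014 and 7659 CPM in mesothelial barcodes against 5.98 and 17.9 CPM in stromal ones, whereas Wt1, Efemp1, Igfbp6 and Rspo1 are also well above 0 in stromal barcodes.

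Members were then set beside stromal barcodes, those with at least 1.5% of UMIs in Dcn, Col3a1, Col1a2 and Lum and none of the 5 mesothelial genes, which numbered 2046 in NCD and 2613 in HFD. Over the 2762 genes with a mean of at least 50 CPM, leaving out the genes the 2 rules used, 72 (2.61%) were at least 4-fold higher in members in both libraries and 64 (2.32%) were at least 4-fold lower. By rank, Igfbp2, an insulin-like growth factor binding protein, Slpi, Krt18 and Gpm6a stood first among the higher genes. Gsn, Lpl, Htra3 and Plpp3 stood first among the lower ones. Since the rules chose both classes on these counts, the ratios are descriptions. In the barcodes with at least 2 rule genes the counts were 78 of 2773 (2.81%) and 44 (1.59%). There 33% of all genes were higher and 30.1% lower in both libraries.

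Among keratins, Krt18 stood at 400.7 CPM in NCD members and 400.1 CPM in HFD members, with 1 and 2 UMIs in all stromal barcodes of the 2 libraries. Its log2 ratio over stromal barcodes was 11.97 (9.47 to 17.29) in NCD and 10.35 (8.36 to 13.47) in HFD. Its partner Krt8 had 139 and 14 UMIs in members and 2 in the stromal barcodes of each library, with log2 ratios of 10.78 (8.90 to 13.84) and 9.35 (7.23 to 12.53). Of the HFD UMIs of Krt18, 14 of 28 lay in the barcode with only Krt19, as did 6 of the 14 of Krt8. Krt14, a basal keratin of stratified epithelium, was at 141.1 and 42.9 CPM in members and at 0 in stromal barcodes of both libraries. It was seen in only 6 of 59 NCD members, with 25 of its 56 UMIs in 1 of them. Its 3 HFD UMIs lay in 1 of 23 members. Vimentin (Vim), the intermediate filament of mesenchymal cells, was at 1883 CPM in NCD members and 1871 CPM in NCD stromal barcodes. The summed NCD members thus held RNA of both filament systems, which does not show both in the same barcode.

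Several of the ranked genes encode secreted proteins. Slpi, the secretory leukocyte protease inhibitor, was 1340-fold higher in members than in stromal barcodes in NCD and 427.4-fold higher in HFD. It was uneven among members, from 0 over a median of 20.9 to 649.2 UMIs per 10000 in NCD, and from 0 over 46.0 to 1112 in HFD, with 20 NCD and 8 HFD members at 0. Clu, the extracellular chaperone clusterin, was spread more evenly, with UMIs in 57 of 59 and 20 of 23 members and levels of 1457 and 1157 CPM. Fmod, a small proteoglycan that binds collagen, was at 483.9 and 271.5 CPM against 0.797 and 1.53 CPM in stromal barcodes. Igfbp2 was at 536.8 and 614.4 CPM, with 3 UMIs in NCD stromal barcodes and none in HFD ones, where it was at least 1337-fold higher in members. It came from 32 of 59 NCD members and 7 of 23 HFD members. Spint2, a membrane bound inhibitor of serine proteases, was at 186.5 and 685.9 CPM, but 32 of its 48 HFD UMIs lay in the barcode with only Krt19.

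Junction and surface genes were high as well. Of 28 junction genes, 9 passed the filter. Of these, 8 were higher than in stromal barcodes in both libraries, beside 33.9% of all genes. At least 4-fold higher were 4, beside 2.61% of all genes. Genes near 0 in stromal barcodes passed only because members were high, so these counts and the medians that follow are descriptions. The median log2 ratio of the list was 2.15 in NCD and 1.44 in HFD, beside 0.04 and -0.01 over all genes. Cldn10, a claudin that forms ion channels between cells, was at 400.7 and 342.9 CPM against 2.79 and 2.45 CPM in stromal barcodes. F11r, a junctional adhesion molecule, was at 178.9 and 128.6 CPM, with 6 of its 9 HFD UMIs in the barcode with only Krt19. Lsr, which encodes an angulin of the tricellular junction, was at 209.2 and 185.8 CPM, and Cxadr, a junctional receptor named for coxsackievirus and adenovirus, was at 201.6 and 171.5 CPM. Cldn3, another claudin, was at 161.3 and 257.2 CPM, and 11 of its 18 HFD UMIs lay in the barcode with only Krt19. The neuronal membrane glycoprotein gene Gpm6a was at 819.0 and 300.1 CPM and had no UMI in NCD stromal barcodes, so that members were at least 2739-fold higher. Ezr and Slc9a3r1, which link microvilli to actin, were 17.1-fold and 40.1-fold higher than in stromal barcodes in NCD, and 9.55-fold and 12.0-fold higher in HFD.

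The remaining genes named by rank were Pkhd1l1, Mroh2a, Prlr, Stmn2, Atp1b1, Gsta4 and Lgals7. Prlr encodes the prolactin receptor, Atp1b1 a subunit of the sodium and potassium pump, and Lgals7 galectin 7, a lectin of stratified epithelia. Lgals7 was at 1270 CPM in NCD members and 585.8 CPM in HFD members, 335.4-fold and 27.7-fold above stromal barcodes. Prlr was at 103.3 and 114.3 CPM against 0.897 and 0.766 CPM. Stmn2, a microtubule regulator known from neurons, was at 282.2 and 114.3 CPM and came from 25 of 59 and 7 of 23 members.

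**Figure D3:**
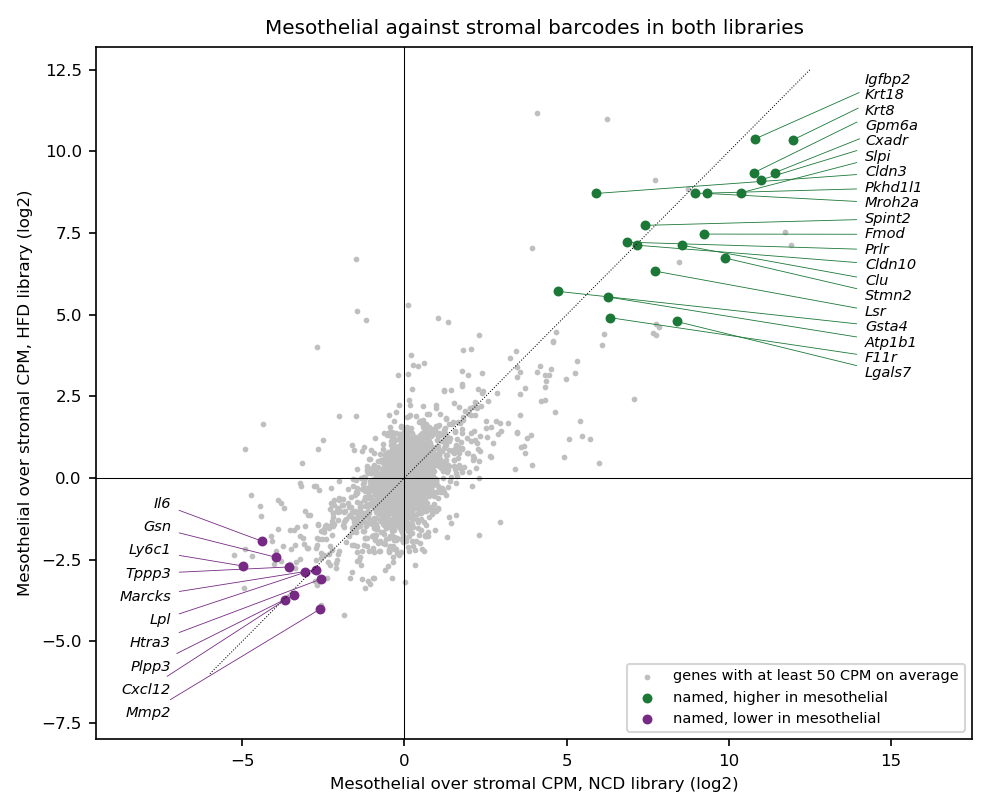
Log2 ratio of mesothelial over stromal CPM in the NCD library (x axis) and the HFD library (y axis), with 1 point per gene; ratios against a class with no UMI are drawn against its floor of 3 UMIs. The 20 named higher genes lie between 4.74 and 11.97 in NCD and the 10 named lower genes at -2.57 or lower in NCD and at -1.94 or lower in HFD.

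Transcription factors of the mesothelial lineage were shared with stromal barcodes to different degrees. Wt1, which marks visceral mesothelium, was at 393.1 and 271.5 CPM in members against 134.7 and 103.1 CPM in stromal barcodes, a 2.92-fold and 2.63-fold difference. Bnc1, basonuclin, was at 70.6 and 42.9 CPM in members and at 0 in stromal barcodes. Osr1, a regulator of mesoderm, was 3.16-fold and 3.24-fold higher, and Ebf1, a factor of the adipocyte lineage, stood at 47.9 and 157.2 CPM against 510.7 and 470.2 CPM in stromal barcodes. Of the 10 genes of this list past the filter, 4 were higher in both libraries and 5 lower in both, beside 33.9% and 31.4% of all genes. With at least 2 rule genes, 5 of 11 were higher and 4 lower.

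Of 21 genes of Wnt, R-spondin and BMP signalling, 6 passed the filter. Of these, 4 were higher in both libraries and 2 lower, beside 33.9% and 31.4% of all genes. Sfrp2, a secreted Wnt inhibitor, was at 630.0 and 614.4 CPM against 57.0 and 57.7 CPM in stromal barcodes, and Rspo1, a Wnt enhancer, at 788.8 and 228.6 CPM against 60.5 and 33.7 CPM. The complement gene C2 was 20.6-fold and 7.83-fold higher than in stromal barcodes, while C3, the central complement protein, was 1.96-fold and 1.92-fold higher. Ptgis, the prostacyclin synthase, was 3.98-fold and 3.88-fold higher. Igfbp6 was at 6162 and 2701 CPM against 1801 and 1449 CPM.

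Genes of fibrillar matrix were lower, 19 of 24 in both libraries beside 31.4% of all genes, with medians of -1.13 and -1.36. Basement membrane genes were lower for 11 of 16, with medians of -1.45 and -1.36. Stromal barcodes were chosen on matrix genes, and genes low in members could pass the filter through their stromal level. These counts and medians are therefore descriptions. Col4a1, a chain of basement membrane collagen, was 8.52-fold lower in NCD members and 4.05-fold lower in HFD members. Members still carried stromal transcripts, with Dcn, the proteoglycan decorin, at 13054 and 7559 CPM against 24214 and 12377 CPM in stromal barcodes, which were chosen on it. Dcn was seen in all 59 and all 23 members, with medians of 122.9 and 87.4 UMIs per 10000, and stood at 757.4 and 2264 CPM in macrophage barcodes. Lum, another proteoglycan, was at 108.4 and 671.6 CPM in members against 1377 and 3694 CPM in stromal barcodes, also chosen on it.

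Gsn, which encodes the actin severing protein gelsolin, stood first among the lower genes, at 1898 CPM in NCD members and 3301 CPM in HFD members against 29471 and 17810 CPM in stromal barcodes. One NCD barcode held 309 of the 753 Gsn UMIs of that library's members. Lpl, lipoprotein lipase, was at 121.0 and 214.3 CPM against 1005 and 1586 CPM, and 30 of its 48 NCD UMIs lay in 1 barcode. The chemokine Cxcl12 was at 22.7 and 28.6 CPM against 292.6 and 382.9 CPM, and the cytokine Il6 had 2 UMIs in NCD members and none in HFD members. Mmp2, a gelatinase, was at 47.9 and 28.6 CPM against 291.4 and 463.5 CPM. Htra3, Plpp3, Tppp3, Ly6c1 and Marcks were the other 5 named, with log2 ratios in NCD from -4.98 for Ly6c1 to -2.57 for Htra3.

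The diets were compared over sums of all members of a library, for 2802 genes with a mean of at least 50 CPM. In HFD members 286 genes (10.2%) were at least 2-fold higher and 395 (14.1%) at least 2-fold lower, and the median log2 ratio was -0.08. For the same genes in stromal barcodes 133 (4.75%) were higher and 70 (2.5%) lower. Without the 4 barcodes with 1 rule gene the counts in members were 289 of 2808 (10.3%) and 422 (15%), beside 4.74% and 2.53% of those genes in stromal barcodes. The HFD sum rests on 23 barcodes, so that a gene of 50 CPM there stands for under 4 UMIs.

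By their median, mesothelial markers outside the rule were lower in HFD members, which is given as a description. Of the 19 past the filter, 11 were at least 2-fold lower and 0 higher, beside 14.1% and 10.2% of all genes, and the median log2 ratio was -1.02, with 9 lower and -0.95 in the barcodes with at least 2 rule genes. The median of the same list in stromal barcodes was 0.23, but it partly rests on ratios of a few UMIs. There Krt7 was at 0.0997 and 0.306 CPM and Lrrn4 at 0.0997 and 0.613 CPM in NCD and HFD. A marker high only in NCD members could pass the filter through its NCD level. HFD members also held a smaller median share of UMIs in the rule genes, 0.291% against 0.580% in NCD. Of the 23 HFD members, 17 had 4 to 9 UMIs of the rule genes, as did 6 of the 59 NCD members. The part of the filter and the rule in the lower marker levels was not tested. Krt7, a type II keratin of simple epithelia, stood at 337.7 CPM in NCD, and in HFD at 57.2 CPM (15.6 to 146.3), a log2 ratio of -2.56 (-4.46 to -1.17). It was seen in 40 of 59 and 4 of 23 members, at most 11.2 and 6.65 UMIs per 10000. Lrrn4, a leucine rich repeat membrane protein, was at 385.6 and 85.7 CPM, and Gpm6a, Rspo1 and Dmkn had log2 ratios of -1.45, -1.79 and -2.57. Slpi, Krt18 and Cldn10 differed little, with log2 ratios of -0.07 (-0.20 to 0.07), -0.00 (-0.64 to 0.58) and -0.22 (-0.91 to 0.40), and Wt1 had -0.53 (-1.30 to 0.16). Without the 4 barcodes with 1 rule gene, Slpi was at 0.24, Krt18 at -0.70 and Cldn10 at 0.08.

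Of 10 mural genes, 3 passed the filter. Of these, 2 were at least 2-fold lower in HFD members, Acta2 and Tagln, beside 14.1% of all genes, and Des was not. Acta2, smooth muscle actin, had 310 UMIs in 33 NCD members and 5 UMIs in 5 HFD members, that is 781.2 CPM and 71.4 CPM, a log2 ratio of -3.45 (-5.08 to -2.21). Per barcode it reached 76.8 UMIs per 10000 in NCD, with a median of 2.50, and 4.31 in HFD, with a median of 0. After thinning it was seen in 32.2% (20.6 to 45.6) of NCD members and 8.70% (1.07 to 28.0) of HFD members, intervals that overlap, against 0.262% and 0.615% of macrophage barcodes. Tagln, transgelin, had 64 and 2 UMIs, or 161.3 and 28.6 CPM, and passed the filter through its NCD level. Des, the muscle filament desmin, stood at 70.6 and 128.6 CPM, a log2 ratio of 0.87 (-0.40 to 1.99), and at 1.27 (-0.00 to 2.41) in the barcodes with at least 2 rule genes. After thinning Des was seen in 15.3% of NCD members and 17.4% of HFD members. The pericyte and muscle genes Rgs5, Myh11, Cspg4 and Higd1b, 4 of the 10 mural markers, were at 0 in members of both libraries, and the 10 summed to 1023 CPM in NCD members and 242.9 CPM in HFD members. In stromal barcodes Acta2 was at 5.78 and 13.3 CPM.

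Of the 15 ranked lower genes, 5 encode proteins that fold others in the endoplasmic reticulum, a grouping chosen after its values were seen and set against no share of all genes. Hspa5, the main chaperone of that compartment, stood at 2712 and 614.4 CPM in NCD and HFD members, a log2 ratio of -2.14 (-2.62 to -1.70). Per barcode it ran from 0 to 82.3 UMIs per 10000 in NCD and from 0 to 19.8 in HFD, where the median was 6.01, so the ranges overlap and HFD members fill the lower end. Hsp90b1 and Manf, also residents of the compartment, had log2 ratios of -2.05 (-2.77 to -1.40) and -1.80 (-2.37 to -1.28), Creld2 had -2.37 (-4.01 to -1.11) and the collagen chaperone Serpinh1 -1.58 (-2.04 to -1.16). In stromal barcodes the same genes were lower in HFD by less, with log2 ratios of -0.91, -0.69, -0.87, -1.04 and -0.32. Over all barcodes of a library Hspa5 was at 1126 and 747.1 CPM.

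First by rank among the lower genes, Enpp2, autotaxin, which makes lysophosphatidic acid, had 317 UMIs in 36 NCD members and 4 in 3 HFD members, or 798.9 and 57.2 CPM, a log2 ratio of -3.81 (-5.69 to -2.43), and was at 186.8 and 67.2 CPM in stromal barcodes. Fgf1, a growth factor, stood at 395.7 and 57.2 CPM in members and at 8.97 and 23.3 CPM in stromal barcodes. Tnfrsf11b, the decoy receptor osteoprotegerin, was at 405.7 and 85.7 CPM. Lgals1, galectin 1, was seen in all 59 NCD members and 22 of 23 HFD members and was at 11010 and 4330 CPM, with a log2 ratio of -1.35 (-1.52 to -1.18) in members and 0.14 in stromal barcodes. Arhgap29, Chrdl1 and Isg15 had 1 UMI each in HFD members, against 84, 71 and 110 in NCD members.

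The 2-fold counts of retinoid and insulin-like growth factor genes changed when the 4 barcodes with 1 rule gene were left out. The HFD sum then fell from 69985 to 55250 UMIs. That alone raises the HFD CPM of any gene that the left-out HFD barcode did not hold. Of 6 retinoid genes past the filter, 3 were at least 2-fold lower and 1 higher, beside 14.1% and 10.2% of all genes, with a median of -0.98, and in the barcodes with at least 2 rule genes 1 was lower and the median was -0.69. Rarres2, which encodes the adipokine chemerin, was at 4224 and 1800 CPM, a log2 ratio of -1.23 (-1.50 to -0.97). Igfbp6 had -1.19 (-1.41 to -0.98) and Igfbp5 -1.21 (-1.89 to -0.59), 2 of 8 genes of that list being at least 2-fold lower, beside 14.1% of all genes, and 0 of 8 without the 4 barcodes. Of 10 interferon response genes, 4 were at least 2-fold lower, Isg15, Ifit3, Oasl2 and Xaf1, and 1 higher, beside 14.1% and 10.2% of all genes. In the barcodes with at least 2 rule genes, 4 of 11 were lower and 0 higher. The higher one, Ly6e, was at 877.0 and 1800 CPM, and its log2 ratio without the 4 barcodes was -0.10.

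Genes higher in HFD members fell into those carried by 1 barcode and those spread over many. Cd52 stood at 12.6 and 8345 CPM in NCD and HFD members, and 556 of its 584 HFD UMIs lay in the barcode with only Krt19. Without it Cd52 was at 506.8 CPM, beside 242.5 CPM in HFD stromal barcodes. Hpgd, Qsox1, Crot, Cystm1, Spint2 and Folr1 also had 66.7% or more of their HFD UMIs in 1 barcode. Without the 4 barcodes Cystm1 turned from 2.31 to -1.16, and the lower bound of Hpgd, Qsox1, Crot, Spint2 and Folr1 was under 0. Plac8 had 42 HFD UMIs in 7 barcodes, 28 of them in the barcode with only Krt19. Saa3, an acute phase protein, had 35 HFD UMIs in 3 barcodes, 29 of them in 1 that was not the barcode with only Krt19. Plau, the urokinase plasminogen activator, had 2 UMIs in NCD members and 12 in 5 HFD members, 6 of them in 1.

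Timp1, an inhibitor of matrix proteases, was spread over 17 of 23 HFD members and 25 of 59 NCD members, at 971.6 and 191.5 CPM, a log2 ratio of 2.34 (1.85 to 2.83). In NCD 1 barcode held 36 of its 76 UMIs. Stromal barcodes went further, from 44.2 to 664.0 CPM, a log2 ratio of 3.91. Pam, which amidates peptide hormones, had log2 ratios of 2.14 in members and 2.71 in stromal barcodes, and Mgp, an inhibitor of calcification, had 1.64 and 1.81. Pam was at 120.6 and 812.4 CPM and Timp1 at 45.1 and 393.3 CPM over all barcodes of a library, so the difference was not limited to the members. Spry2, a feedback inhibitor of growth factor signalling, stood at 85.7 and 371.5 CPM in members, in 18 of 59 and 14 of 23 barcodes, and at 127.9 and 249.7 CPM in stromal barcodes. The nuclear RNA Malat1 was at 29828 and 67515 CPM in members and at 39605 and 54071 CPM in stromal barcodes.

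Leaving out the 4 barcodes brought Cma1, Tpsb2, Lsp1, Abhd2, Lst1, Kdm6b, Pcolce2 and Nfia into the ranked list. Cma1 and Tpsb2, mast cell proteases, had 11 and 9 UMIs in 5 and 4 HFD members and none in NCD members. Over all 23 HFD members that was 157.2 and 128.6 CPM, beside 194.6 and 140.5 CPM over the whole HFD library. In the HFD members with at least 2 rule genes, 1 UMI stood for 18.1 CPM instead of 14.3 CPM. There both genes reached the library's level, which the ranking requires. The 12 macrophage markers summed to 436.0 CPM in NCD members and 2186 CPM in HFD members, beside 562.5 and 2934 CPM in stromal barcodes and 8710 and 11032 CPM over the libraries. Adgre1 and Ptprc were at 0 in HFD members. The median macrophage marker stood in members at 6.56% of its level in the whole library in NCD and at 15.5% in HFD. Cd74 and H2-Aa, which serve antigen presentation on class II molecules, were higher in HFD members with log2 ratios of 2.18 and 2.13, and stromal barcodes had 1.79 and 1.61. The part of free RNA in these differences was not tested.

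Markers of other cell types stood at different levels. Adipoq, Plin1, Cfd and Lep, markers of adipocytes, were at 0 in members of both libraries, and all 10 adipocyte markers summed to 27.7 and 14.3 CPM. The endothelial genes Flt1, Tie1 and Vwf were at 0 in both, with sums of 297.4 and 500.1 CPM over 12 markers, led by Fabp4 in HFD. Lymphoid markers summed to 7.56 and 142.9 CPM, with 9 and 7 of 12 at 0, and erythroid ones to 12.6 and 42.9 CPM. Markers of other epithelia summed to 320.1 and 671.6 CPM, with 14 and 10 of 18 at 0. Without the 4 barcodes they summed to 328.9 and 199.1 CPM, with 14 and 15 at 0, so the direction turned. Of the 4 cell cycle genes past the filter, 0 differed 2-fold in all members, beside 10.2% of all genes higher and 14.1% lower. Without the 4 barcodes 1 was lower.

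**Figure D4:**
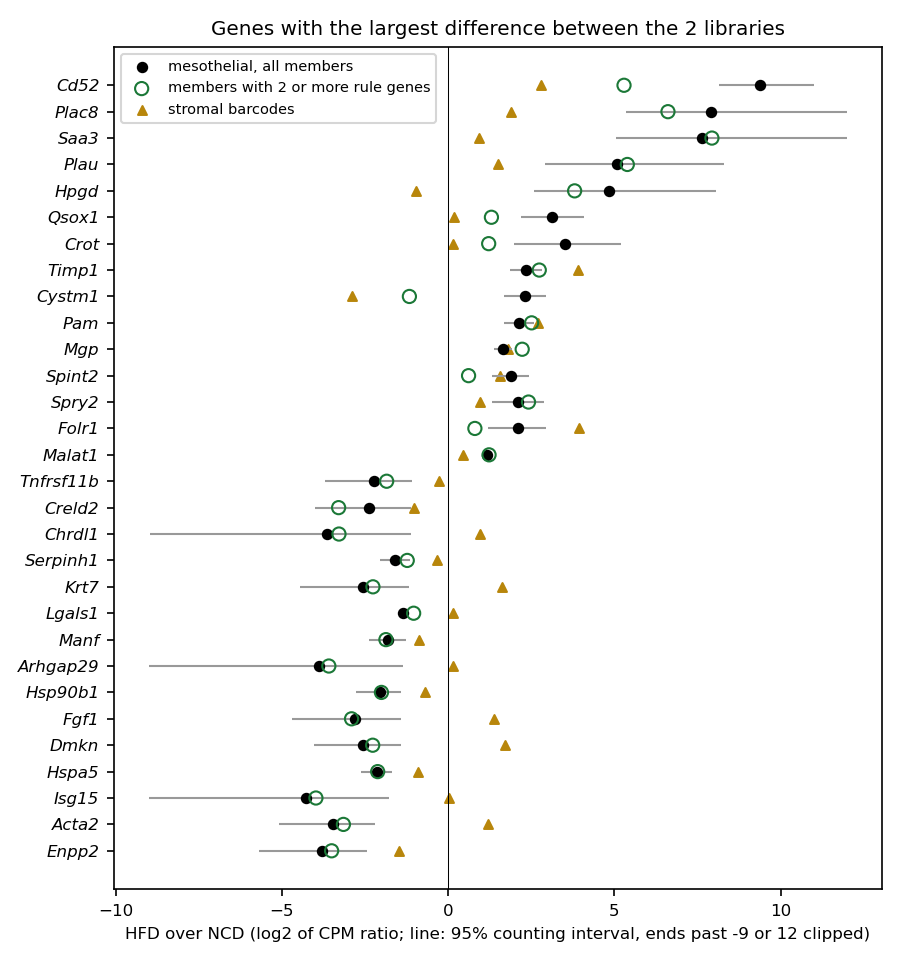
Log2 ratio of HFD over NCD CPM (x axis) for the 15 highest and 15 lowest ranked genes in all members (black, with 95% counting intervals), in members with UMIs of at least 2 rule genes (open green) and in stromal barcodes (triangles); intervals past the axis limits are clipped. Cystm1 changes side between the 2 sets of members, while Acta2, Dmkn and Fgf1 lie below 0 in members and above 0 in stromal barcodes.

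Of the other lists, stromal genes had a median of 0.32 in members and 0.26 in stromal barcodes, and 3 of 17 were at least 2-fold higher and 2 lower, beside 10.2% and 14.1% of all genes, the shares behind every list count here. Without the 4 barcodes 7 were higher and 0 lower, and the median in members was 0.65. Pi16, a marker of adventitial progenitors, was at 73.1 and 214.3 CPM in members, and its 29 NCD UMIs became 5 without the 3 barcodes with only Nkain4. Prostanoid genes had a median of 1.31 over 7 genes, against -0.81 in stromal barcodes, with 4 higher and 1 lower. In the barcodes with at least 2 rule genes it was 0.64 over 5 genes, below antigen presentation at 1.00 and lipid handling at 0.82, and with a mean of at least 200 CPM in all members it was -1.09. Ptgs2, cyclooxygenase 2, moved from a log2 ratio of 2.16 to 0.30 and Ptgs1 from 1.31 to -0.61 when the 4 barcodes were left out. Fibrillar matrix genes had a median of -0.10 with 4 of 23 higher and 4 lower, and without the 4 barcodes 0.25 with 8 higher and 1 lower. Glycolysis and hypoxia genes had -0.47 with 1 of 12 lower, and immediate early genes, which dissociation can induce, -0.23 with 1 of 20 lower and 0 higher, or 0 lower and 1 higher without the 4 barcodes.

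**Figure D5:**
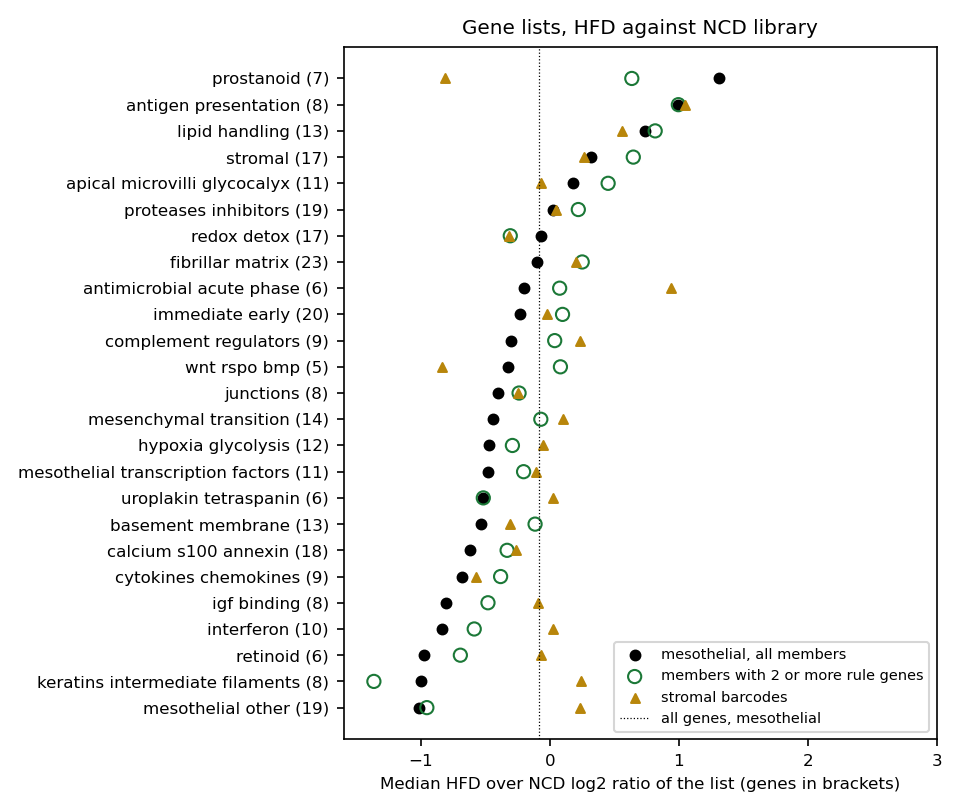
Median log2 ratio of HFD over NCD for each list with at least 5 genes past the filter (number in brackets), in all members (black), in members with UMIs of at least 2 rule genes (open green) and in stromal barcodes (triangles); the dotted line is the median of all genes in members, -0.08. Mesothelial markers outside the rule lie at -1.02 in members and at 0.23 in stromal barcodes, and prostanoid genes at 1.31 and -0.81. Several of the mesothelial markers are near 0 CPM in stromal barcodes, so their median there partly rests on a few UMIs.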

How the data were processed

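Gene counts were taken as deposited: whole-number UMI counts per gene and cell barcode, made by the authors and limited by them to called cells. Cell Ranger, Seurat and the build mm10 (GRCm38) are named in the submitters' processing notes without versions. Both tables held 27998 genes. Coordinates came from GENCODE vM21 on GRCm38 for 27722 genes matched by identifier, and promoter windows from RefSeq on GRCm38.p6. The members, the 34 gene lists and the rules were chosen with earlier results of these data known.

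Counts were summed per class and library and given as CPM of the sum. Shares have exact Clopper-Pearson, levels exact Poisson and ratios conditional binomial 95% intervals, all for counting error only. A class with no UMI was given a floor of 3 counts over the group for its ratio. Comparisons used genes with a mean of at least 50 CPM over the sums compared, and a fold of 2 between diets or 4 between classes. Cells are not replicates, so no test was run. The ratio code was tested on simulated data.

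Genes were named by rank of the interval bound nearest to 1: up to 20 higher and 10 lower against stromal barcodes, and up to 15 each way between diets, with at least 100 CPM in the higher group. For the diets, the gene also needed a UMI in at least 10% of members and a level at or above the whole library's. These ranks left out the genes of the rules and mitochondrial, ribosomal, haemoglobin, sex-linked and merely predicted genes. Rule genes, detected mesothelial markers and up to 5 genes of each list with the largest ratios could be named too. Other genes were chosen after their values were seen. Doublets were not removed; Scrublet's own threshold called 182 NCD barcodes (2.47%) and 0 HFD barcodes, where it has not worked. The 5% with the highest scores held 8 NCD and 0 HFD members. Alternatives changed the rule, the limits on genes, mitochondrial UMIs and CPM, the averaging, the scaling and free RNA. The set with at least 2 rule genes was added after seeing the data. Python 3.11.15 was used with numpy 2.4.6, scipy 1.17.1, pandas 2.3.3, scanpy 1.11.5 and matplotlib 3.10.9.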

Additional observations from a re-analysis of the deposited data

Results flagged for a closer look

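Among the 30 genes ranked by their difference between the libraries, 4 with at least 10 CPM in stromal barcodes of a library were at least 2-fold apart one way in members and the other way in stromal barcodes. Krt7 met the folds too, at -2.56 and 1.62, but had 1 and 2 UMIs in stromal barcodes. With 1 library per diet that contrast was not tested. Acta2 had a log2 ratio of HFD over NCD of -3.45 in members and 1.21 in stromal barcodes. Dmkn had -2.57 and 1.72, and Fgf1 had -2.79 and 1.38. Cystm1 had 2.31 and -2.89, and 39 of its 42 UMIs in HFD members lay in the barcode whose only rule gene was Krt19.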

How the results depend on the processing

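With 1 library per diet, no replicate could be left out. No paired analysis was possible because each diet has 1 library and no result comes from a test. Of 348 values of the main results under the alternatives, 321 stayed within the limits set for them, 26 moved beyond and 1 reversed. Among 750 values of named genes, 646 stayed, 103 moved and 1 reversed; the causes were not tested. Requiring 0.3% and 8 UMIs of the rule genes left 51 NCD and 7 HFD members, a HFD share of 0.103%, a log2 share ratio of -2.75, 535 genes higher in HFD, and medians of -0.94 for stromal, 0.36 for antigen presentation and -1.19 for calcium, S100 and annexin genes. Members with under 1.5% stromal genes numbered 29 and 14, or 0.395% and 0.206%. A mean of at least 20 CPM gave 817 higher and 956 lower genes between diets, 148 genes higher than in stromal barcodes and a median of 0.12 for antigen presentation. A mean of at least 200 CPM gave 45 higher and 77 lower genes and turned the prostanoid median to -1.09. Means over barcodes gave 42 genes lower than in stromal barcodes and an antimicrobial and acute phase median of 0.24, which was -0.70 with at least 1000 genes per barcode. Subtracting the library profile put antigen presentation at 2.57. Cystm1 was at -1.16 with at least 2 rule genes. Leaving out mitochondrial and ribosomal UMIs shifted the median of all genes by 0.06. Without thinning, NCD shares were 93.2% for Upk3b, 84.7% for Msln and Upk1b, 91.5% for Krt19, 98.3% for Nkain4, 67.8% for Krt7 and 55.9% for Acta2, and the HFD share for Msln was 69.6%.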

Other observations

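Over the members of each library, the share of UMIs in the 5 rule genes was followed most closely, of 1181 genes, by Rnase4, Acp5, Ninj1, Serpinb6b and Cav1. The smaller of the 2 Spearman correlations was 0.35 for Rnase4 and 0.28 for Cav1, over 59 and 23 barcodes of 1 library each. Correlations of this size in sparse counts that share depth are given as values only.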
